A study of Mus musculus with 6 samples.

Results

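The serum amyloid A genes were followed in distal colon of mice given the azoxymethane and dextran sulfate sodium regimen, a model of colon cancer on a background of repeated colitis. The family was taken by symbol, after the gene identifiers of the deposited table had been matched to gene names, and its 4 members Saa1, Saa2, Saa3 and Saa4 were all found among 21374 genes. All 4 passed the filter on low values and were among the 21281 genes tested. Male C57BL/6 mice, wild type or Otud1-/-, received an intraperitoneal dose of azoxymethane (AOM), a carcinogen, on day 0 at 6 weeks of age. They then went through 3 cycles of 4 days of 1.5% dextran sulfate sodium (DSS), which injures the colon epithelium, each followed by 14 days of water. RNA was taken on day 81, at a stated age of 18 weeks, from distal colon left after the tumours had been cut away. There were 3 libraries of each genotype and no untreated mice, so every value describes colon that had met both agents. The labels do not say how the Otud1 allele was made, whether it is absent from all tissues, or whether libraries are separate animals, so each p-value measures spread among libraries, which may be technical.

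Serum amyloid A proteins are small apolipoproteins of the acute phase response. The liver secretes SAA1 and SAA2 into the blood on high-density lipoprotein (HDL) when interleukin-1, interleukin-6 and tumour necrosis factor signal through NF-kappa B, STAT3 and C/EBP factors, and gut epithelium, macrophages and fat tissue make members locally. In the intestine these proteins rise with bacterial contact and inflammation, carry retinol, bind formyl peptide and Toll-like receptors and favour T helper 17 responses.

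The levels below are normalised read counts, which are reads divided by a factor for each library, and a change is the libraries labelled Otud1-/- minus wild type on the log2(value + 1) scale. A gene was called changed at an adjusted p under 0.05 in a limma fit over all tested genes. Recovered reads ranged from 18002560 to 19406407 in the wild type libraries and from 15300937 to 18193462 in the libraries labelled Otud1-/-. Otud1, which encodes a deubiquitinase, had 111, 45.1 and 48.9 normalised reads in the wild type libraries and 141, 150 and 208 in those labelled Otud1-/-. Its reads were thus higher where the label says the gene is disrupted (log2 difference 1.37 ± 0.35 SE, adjusted p = 0.0934), and the part of the gene that the allele removes is not given in the sources used here. The genotype is therefore written as the label of a library throughout.

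The 4 genes lie within 42.3 kb of mouse chromosome 7 (mm10). Saa1 (ENSMUSG00000074115.5, chr7:46740497-46742980, minus strand) and Saa2 (ENSMUSG00000057465.5, chr7:46751790-46754313, plus strand) point away from each other across 8.81 kb. The transcripts Saa1-201 and Saa2-201 were identical in 93.9% of 609 aligned columns. The sequences before their start sites are shown because near-identical genes can share both reads and regulation. Over the 250 bases before the start site, Saa1 and Saa2 were identical in 94.8% of 251 aligned columns, with 11 mismatches and 2 gap columns, and Saa1 and Saa3 in 48.2%. Bases -250 to -44 from the RefSeq start site (GRCm38.p6) are printed for Saa1 (chr7:46743024-46743230, minus strand), Saa2 (chr7:46751583-46751789, plus strand) and Saa3 (chr7:46715720-46715926, minus strand), with matches to TTNNGNAA, a C/EBP motif, in capitals.
Saa1: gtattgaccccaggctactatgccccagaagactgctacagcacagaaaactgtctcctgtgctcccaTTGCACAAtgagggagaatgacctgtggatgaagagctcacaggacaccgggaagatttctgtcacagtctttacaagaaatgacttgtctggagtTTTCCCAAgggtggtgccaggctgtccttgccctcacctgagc
Saa2: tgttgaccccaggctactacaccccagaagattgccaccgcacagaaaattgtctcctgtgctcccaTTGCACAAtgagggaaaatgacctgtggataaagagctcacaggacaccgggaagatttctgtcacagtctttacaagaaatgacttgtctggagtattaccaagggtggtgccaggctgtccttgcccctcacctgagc
Saa3: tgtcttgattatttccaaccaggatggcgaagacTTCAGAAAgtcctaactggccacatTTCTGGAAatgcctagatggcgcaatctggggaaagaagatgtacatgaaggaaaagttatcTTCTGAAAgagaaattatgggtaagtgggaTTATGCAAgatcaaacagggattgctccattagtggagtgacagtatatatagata

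In windows of 300 bases around the start site, searched on both strands, TTNNGNAA matched 2 times for Saa1, 1 time for Saa2, 4 times for Saa3 and 2 times for Saa4. The motif is common, since 40.7% of 32851 mouse start-site windows of the same length hold it. The Saa1 matches lay at -182 to -175 and at -86 to -79, and the Saa2 match at -183 to -176. None of the 4 windows held TATAAA (13.6% of all windows), TTCNNNGAA, a STAT motif (8.30%), CCAAT (37.4%) or the kappa B consensus (8.46%). Overlaps between motifs were allowed, and a match is a description of these letters only.

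Saa1, the main inducible member, was by far the most abundant and fell to 33.0% of its wild type mean. The wild type libraries had 36368, 33531 and 41132 normalised Saa1 reads, and the libraries labelled Otud1-/- had 10687, 13095 and 12828. All 3 wild type libraries were high and the groups were far from overlapping, with the lowest wild type library well above the highest of the other group. The means were 37011 ± 3841 (SD, n = 3) and 12203 ± 1320 (SD, n = 3). The log2 change was -1.60 ± 0.14 SE (adjusted p = 0.00284), and 142 genes in all, 0.667% of those tested, were called lower. Saa1 was the member called, 1 of 4, while 60 genes or 0.282% were called higher and no member was among them.

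Saa1 alone took 0.192%, 0.184% and 0.212% of all recovered reads in the wild type libraries and 0.0688%, 0.0761% and 0.0786% in the others. The 95% Wilson intervals of these shares, which cover counting error only, were as narrow as 0.190% to 0.194% for wild type library 1 and 0.0676% to 0.0700% for Otud1-/- library 1. Counting error was thus small beside the difference between the groups. The call was lost in 1 setting, limma without its trend and robust options (adjusted p = 0.0897). The size of the change depended on the scaling between libraries: it was -1.60 as normalised by the authors, -1.39 (adjusted p = 0.00205) where libraries were scaled by their total reads, -1.17 (adjusted p = 0.00719) after quantile normalisation and -1.08 (adjusted p = 0.000348) where they were scaled by summed pan-epithelial markers. Scaling by total reads raised the median of all genes from 0.02 to 0.22, and pan-epithelial scaling raised it to 0.52.

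**Figure D1:**
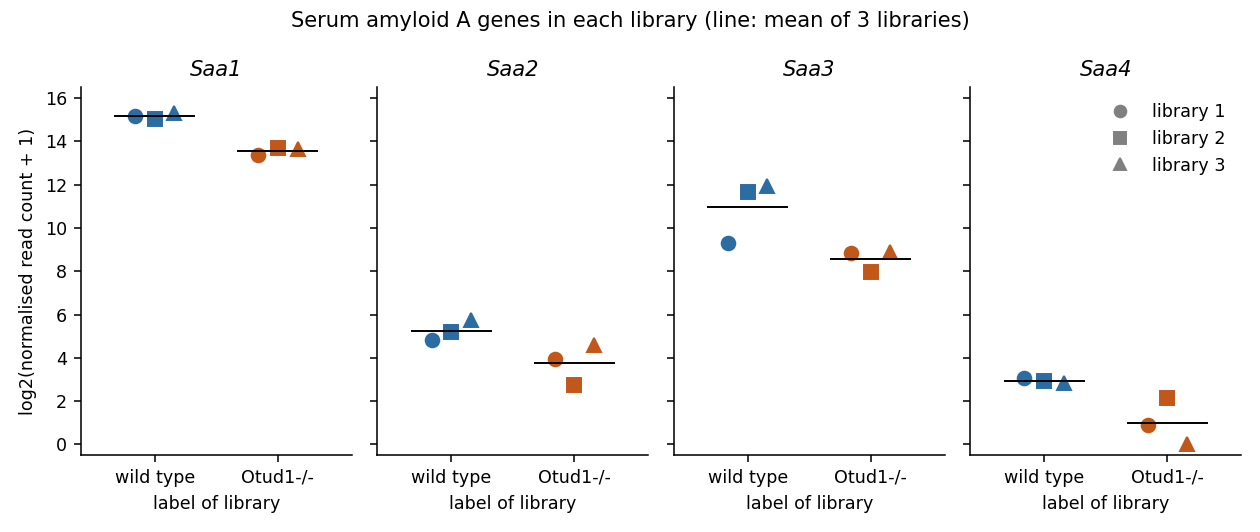
Each panel is 1 Saa gene, the vertical axis is log2(normalised read count + 1), each point is 1 library (symbols give the library number) and the line is the mean of 3. Saa1 is high in all 3 wild type libraries, Saa3 is spread widely among them because wild type library 1 is low, and Saa4 is near the bottom everywhere.

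Saa2 encodes the near twin of Saa1, which the liver co-secretes, and it was scarce in this tissue. The wild type libraries had 27.4, 35.7 and 53.0 normalised Saa2 reads, and the libraries labelled Otud1-/- had 14.5, 5.62 and 23.2. These came from 26, 38 and 52 reads against 17, 5 and 23 reads. The wild type libraries were higher without overlap, but the highest Otud1-/- library came close to the lowest wild type one. The means were 38.7 ± 13.1 and 14.4 ± 8.79 (SD, n = 3 each), the log2 change was -1.50 ± 0.51 SE and the adjusted p was 0.160, so the difference did not pass the threshold.

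Saa1 and Saa2 were far apart in level although their transcripts are close in sequence. Per kb of transcript, Saa1 stood at 60773 normalised reads in the wild type group and Saa2 at 63.9, a ratio of 951, and the ratio was 841 in the group labelled Otud1-/-. In single libraries there were 1326, 938 and 776 Saa1 reads for each Saa2 read in wild type and 737, 2328 and 553 in the other group. Of the 560 windows of 50 bases in Saa1-201, 74 or 13.2% occur unchanged in Saa2 transcripts, and 0 of the windows of 100 or of 150 bases do. In Saa3 transcripts 9 of the 560 windows of 50 bases, or 1.61%, occur unchanged, and 0 of the longer ones. Neither the read length nor the treatment of reads that match several genes is given in the sources used here. The split of reads between Saa1 and Saa2 is therefore uncertain, as is that between Saa1 and Saa3 if reads were short. The sum of both genes fell like Saa1 alone (log2 change -1.60, adjusted p = 0.00284).

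Saa3 (ENSMUSG00000040026.8, chr7:46711998-46715700, minus strand), the member made by macrophages, fat and epithelium outside the liver, had the second highest level, and its wild type libraries were spread widely around their mean. The wild type libraries had 635, 3240 and 3890 normalised Saa3 reads, and the libraries labelled Otud1-/- had 460, 247 and 468. Wild type libraries 2 and 3 were high, wild type library 1 was only a little above the Otud1-/- libraries, and the groups did not overlap. The means were 2588 ± 1723 and 392 ± 125 (SD, n = 3 each), which puts the group labelled Otud1-/- at 15.1% of wild type. The log2 change was -2.41 ± 0.80 SE with an adjusted p of 0.208, a larger difference than that of Saa1 and one that did not pass. Without wild type library 1 the change was -3.23 and was called (adjusted p = 0.0211), and DESeq2 on the recovered reads called it with all 6 libraries (-2.72, adjusted p = 0.00812).

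Saa4 (ENSMUSG00000040017.8, chr7:46727998-46732603, minus strand), the member made constitutively in the liver, was at the edge of detection. It had 7, 7 and 6 reads in the wild type libraries and 1, 3 and 0 in those labelled Otud1-/-, or 7.38, 6.58 and 6.12 against 0.853, 3.37 and 0 normalised reads. The wild type libraries were higher without overlap, and all 3 Otud1-/- libraries were at or under 3 reads, the number that a count of 0 allows. The fitted log2 change of -1.93 ± 0.68 SE (adjusted p = 0.171) did not pass and rests on the pseudocount. The pseudogene Saa-ps (chr7:46734787-46736671), which lies between Saa4 and Saa1, had 5, 4 and 3 reads in wild type and 0, 0 and 1 in the others.

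Thus all 4 members were lower in every library labelled Otud1-/- than in every wild type one, and an exact two-sided permutation test gave p = 0.1 for each, the smallest that 3 against 3 libraries allow. Among all tested genes 13.3% were lower without overlap and 13% were higher without overlap. Saa2 and Saa4 rest on few reads and the split of reads between Saa1 and Saa2 is uncertain, so the 4 members may not be independent. Over the 6 libraries the log2 values of Saa1 correlated with those of Saa2 at r = 0.77, of Saa3 at r = 0.80 and of Saa4 at r = 0.84, and Saa2 correlated with Saa3 at r = 0.87. These correlations describe 6 libraries in 2 groups, and the group difference is part of each. The weakest were Saa2 with Saa4 at 0.33 and Saa3 with Saa4 at 0.55.

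The makeup of the family differed among libraries within a genotype. Saa1 gave 98.2%, 91.1% and 91.2% of the summed family level in the wild type libraries and 95.7%, 98.1% and 96.3% in the others. For every 100 Saa1 reads there were 1.75, 9.66 and 9.46 Saa3 reads in wild type and 4.30, 1.89 and 3.65 in the libraries labelled Otud1-/-. Wild type library 1 and Otud1-/- library 2 were both poor in Saa3 relative to Saa1. The groups overlapped through wild type library 1 only. The log2 ratio of Saa3 to Saa1 differed by -0.81 ± 0.89 SE (exact two-sided permutation p = 0.4, 1 pair compared, adjusted p = 0.4), and it was -1.63 without wild type library 1. Per kb of transcript, Saa1 exceeded Saa3 by 13.03 times in the wild type means and by 28.4 times in the others, and Saa3 exceeded Saa2 by 73.0 and 29.6 times.

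**Figure D2:**
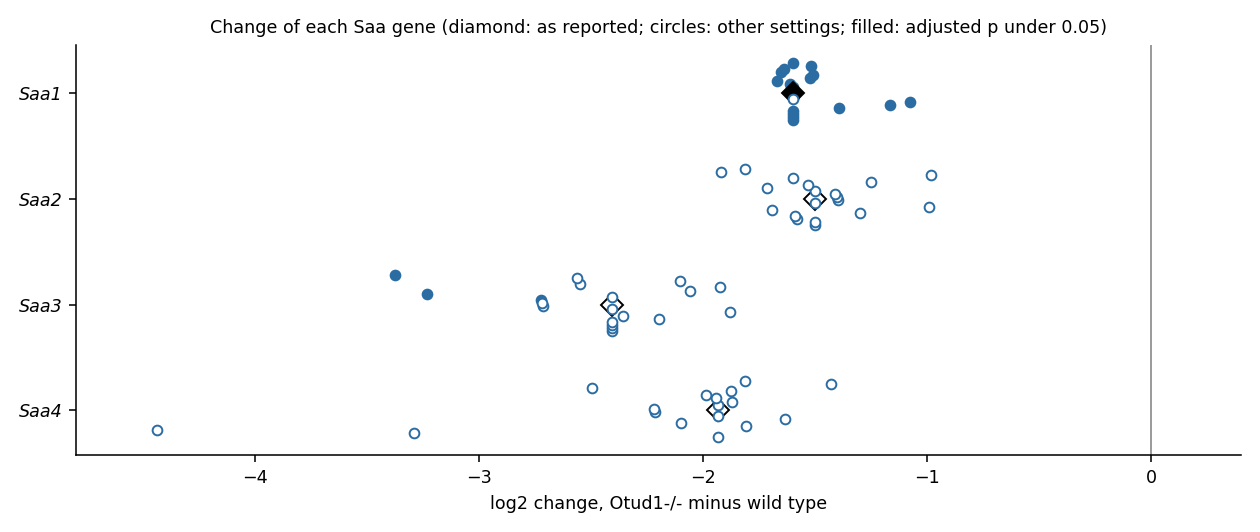
Each row is 1 Saa gene and the horizontal axis is the log2 change; the diamond is the value reported, circles are the other settings that gave an adjusted p, and filled symbols have an adjusted p under 0.05. All values lie below 0; Saa1 is filled in 19 of 20 other settings and Saa3 in 3 of 19.

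The neighbourhood of the cluster was examined next. Within 300 kb of it 16 other tested genes were found, none of them called by limma or edgeR (3 by DESeq2, 5 at an unadjusted limma p under 0.05). Of the 16, 5 were lower and 0 higher without overlap, beside 13.3% lower and 13% higher over all tested genes. The log2 changes of these 16 genes ran from -1.97, which is Saa-ps, to 0.65 with a median of -0.18. On the Saa3 side the nearest tested genes were Saal1, whose name reflects similarity to serum amyloid A (0.03 ± 0.15 SE, adjusted p = 0.945, with values just below 0 after quantile normalisation), the predicted gene Gm45629 (0.39, just below 0 without wild type library 1), and Tph1, the serotonin-forming hydroxylase of enterochromaffin cells (-0.89, adjusted p = 0.069). Saal1 had a mean of 266 normalised reads in wild type and 271 in the other group. On the Saa2 side they were the predicted gene Gm45309 (-0.89), Hps5 (-0.68, adjusted p = 0.096) and Gtf2h1 (-0.15). Hps5 encodes a subunit of a complex that builds lysosome-related organelles. Gm45309 lies inside Hps5 on the same strand, with means of 14.0 normalised reads in wild type and 9.79 in the other group. The changes of Gm45309 and Hps5 may thus not be separate. Gtf2h1, a subunit of the transcription factor TFIIH, was above 0 after scaling to total reads or to pan-epithelial markers.

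**Figure D3:**
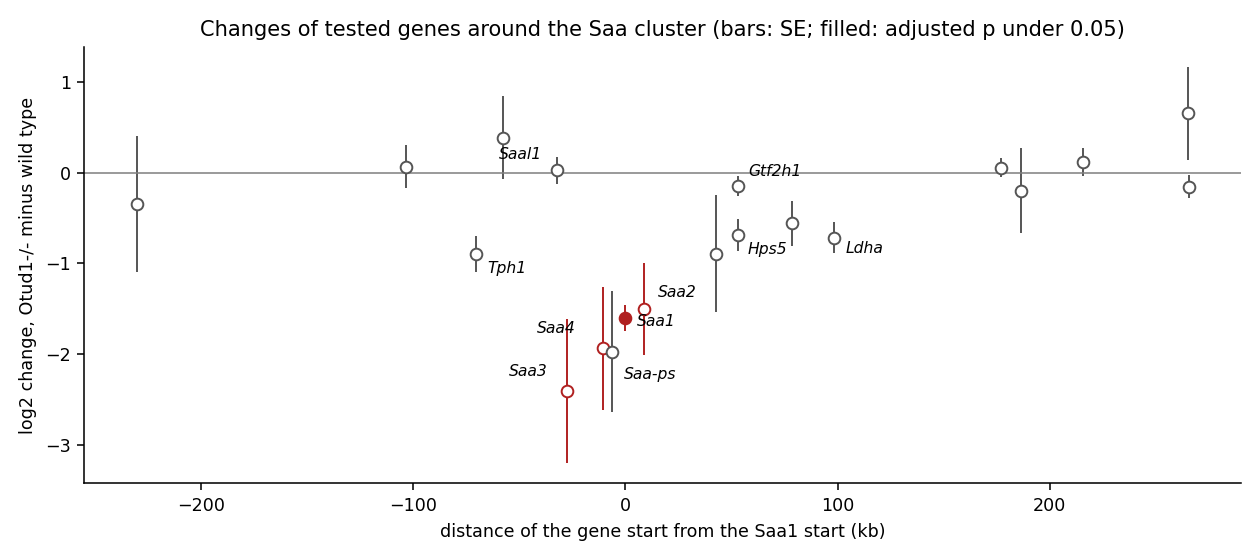
The log2 change of each tested gene is plotted against the distance of its start from the Saa1 start in kb, with SE bars and filled points for an adjusted p under 0.05; Saa members are red. The Saa genes and Saa-ps form a low group around 0 kb, Saal1 lies at 0.03 and Tph1 and Hps5 lie between them and 0.

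The signals that induce the family were mixed. Among 15 tested inducer genes 1 was called lower and 0 higher, and 2 were lower and 2 higher without overlap. Of their changes 10 were below 0 and 5 above. Of all tested genes 0.667% were called lower, and 13.3% were lower and 13% higher without overlap. The median log2 change of the inducers was -0.05 against 0.02 over all tested genes. Il1b, the interleukin-1 that drives Saa transcription, had 719, 858 and 738 normalised reads in wild type and 497, 394 and 433 in the libraries labelled Otud1-/-. It fell without overlap (log2 change -0.81 ± 0.14 SE, adjusted p = 0.0380). The change shrank to -0.28 with pan-epithelial scaling (adjusted p = 0.429) and to -0.60 with total reads (adjusted p = 0.0834). The call was also lost with edgeR (adjusted p = 0.0566 with TMM and 0.0516 with median-of-ratios factors), without any 1 wild type library (adjusted p = 0.108, 0.146 and 0.162 without libraries 1, 2 and 3) or without Otud1-/- library 3 (adjusted p = 0.0830). Il18 (-0.91, adjusted p = 0.0685) and Il23a, a subunit of the interleukin-23 that acts on T helper 17 cells (1.90, adjusted p = 0.101), did not pass. Il6 and Il22, named because both cytokines directly induce Saa genes, overlapped between groups. Il6 had 7.38, 10.3 and 9.18 normalised reads in wild type and 7.68, 10.1 and 24.2 in the other group, and Il22 had 85.4, 43.3 and 22.4 against 35.8, 10.1 and 198. Il22 thus had both its lowest and its highest value among the libraries labelled Otud1-/-.

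In the signalling list of receptors, kinases and transcription factors, 1 of 33 tested genes was called lower and 0 higher. Of the 33 changes 29 were below 0 and 4 above, and the median was -0.34. Without overlap 19 were lower and 2 higher. Over all tested genes 0.667% were called lower, and 13.3% were lower and 13% higher without overlap. Nfkbiz, a nuclear partner of NF-kappa B in secondary response genes, had 4384, 4894 and 4189 normalised reads in wild type against 2446, 3046 and 2987. It was lower in all libraries labelled Otud1-/- and was called (-0.67 ± 0.13 SE, adjusted p = 0.0493). The change was -0.15 with pan-epithelial scaling (adjusted p = 0.604), -0.46 with total reads (adjusted p = 0.0798) and -0.47 with quantile normalisation (adjusted p = 0.145). This call at the threshold was also lost with edgeR TMM (adjusted p = 0.0715), with a filter on a mean of at least 5 (0.0599), with pseudocounts of 0.1 and 0.01 (0.0558 and 0.0615), without any 1 wild type library (0.152, 0.154 and 0.173) and without Otud1-/- library 3 (0.0860). Nfkbia, the feedback inhibitor of NF-kappa B, was at -0.58 (adjusted p = 0.0601) and the receptor gene Tnfrsf1a at -0.59 (adjusted p = 0.0552). Cebpb, named as the C/EBP factor of the acute phase response, had 350, 602 and 448 normalised reads against 122, 305 and 250 (-1.11 ± 0.36 SE, adjusted p = 0.168), lower without overlap and not called.

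Lists of genes that share the family's inducers were examined next. The shares over all tested genes were 0.667% called lower, 13.3% lower without overlap and 13% higher without overlap. Of 30 listed acute phase genes 21 were tested and 0 were called by limma or edgeR (6 by DESeq2, 8 at an unadjusted limma p under 0.05); 6 were lower and 0 higher without overlap, and the median was -0.77. The complement gene Cfb (-1.14, adjusted p = 0.0708), the lipopolysaccharide-binding protein gene Lbp (-2.44, adjusted p = 0.0885) and C3 (-0.87, adjusted p = 0.138) had the smallest p-values. In the list of epithelial genes that respond to cytokines and bacteria, 7 of 23 were called lower and 0 higher. Without overlap 13 were lower and 0 higher, and the median was -1.03. Of the 23 changes 18 were below 0 and 5 above. Ido1, which breaks down tryptophan, had 319, 335 and 525 normalised reads against 40.1, 60.7 and 47.4 (-2.95 ± 0.26 SE, adjusted p = 0.00284). Duoxa2, the maturation factor of the peroxide-forming oxidase DUOX2, had 5618, 5214 and 4984 against 2153, 2544 and 1910 (-1.27 ± 0.13 SE, adjusted p = 0.00652). Nos2, the inducible nitric oxide synthase, had 6490, 6340 and 5637 against 1971, 1099 and 1758 (-1.98 ± 0.21 SE, adjusted p = 0.00857). For each of these the groups lay well apart. Ido1 stayed called without any 1 library, while Duoxa2 and Nos2 did not pass without wild type library 2 (adjusted p = 0.0527 and 0.0693) or library 3 (0.0646 and 0.0685). The other 4 called lower were named after their values were seen because they were called. They were Duox2, the mucosal scavenger protein gene Dmbt1, the cornified envelope gene Sprr2h and the chemokine gene Ccl20. Their changes were -1.03, -1.47, -2.27 and -1.32. None of these 4 was called without any 1 wild type library (adjusted p from 0.0671 to 0.173), nor Duox2 without Otud1-/- library 3 (0.0913). With quantile normalisation Duox2 was at -0.72 (adjusted p = 0.0906) and Dmbt1 at -0.81 (0.142), and with pan-epithelial scaling Duox2 was at -0.51 (0.0615) and Ccl20 at -0.79 (0.0731), so none of these passed there.

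Among genes for receptors of the proteins, 1 of 13 was called lower and 0 higher. Without overlap 6 were lower and 0 higher, and the median was -0.41. Beside these, 0.667% of all tested genes were called lower, and 13.3% were lower and 13% higher without overlap. Fpr2, the formyl peptide receptor through which SAA attracts phagocytes, had 64.3, 124 and 85.7 normalised reads in wild type and 23.9, 13.5 and 21.2 in the libraries labelled Otud1-/-. It was lower in all 3 of the latter and was called (-2.16 ± 0.35 SE, adjusted p = 0.0350), though not without any 1 wild type library (adjusted p = 0.0706, 0.138 and 0.169) or without Otud1-/- library 3 (0.0647). Tlr4 (-0.72, adjusted p = 0.0858) and its co-receptor Cd14 (-0.96, adjusted p = 0.138) did not pass.

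Of the HDL apolipoprotein and lipid transfer genes, 1 of 12 tested was called lower and 0 higher, beside 0.667% and 0.282% of all tested genes. The list's median was -0.16. The gene called was Apob, which encodes the apolipoprotein of other lipoprotein classes rather than of HDL. It had 2161, 1945 and 2308 normalised reads against 589, 922 and 583 (-1.64 ± 0.18 SE, adjusted p = 0.00857). It did not pass without wild type library 2 (0.0562) or 3 (0.0825). Pltp (-1.03, adjusted p = 0.0868), a phospholipid transfer protein, and the HDL enzyme gene Pon3 (-0.52, adjusted p = 0.126) were not called. After scaling to pan-epithelial markers the log2 change of Pon3 was 0.0041. Of 22 retinol handling genes 0 were called by limma, edgeR or DESeq2 (3 at an unadjusted limma p under 0.05), and the median was 0.19. Without overlap 1 was lower and 3 were higher, beside 13.3% and 13% of all tested genes. The retinoic acid synthase gene Aldh1a2 was at 2.04 and Rdh11 at 0.34. Of 10 genes for proteases and amyloid partners 0 were called by limma or edgeR (3 by DESeq2, 4 at an unadjusted limma p under 0.05), with a median of -0.08; the cathepsin genes Ctss and Ctsb were at -0.69 and -0.39, Ctsb above 0 after pan-epithelial scaling, and Hspg2, the perlecan of amyloid deposits, at 0.51. Of 11 T helper 17 and group 3 lymphoid genes 0 were called by limma, edgeR or DESeq2 (1 at an unadjusted limma p under 0.05), with a median of -0.30.

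**Figure D4:**
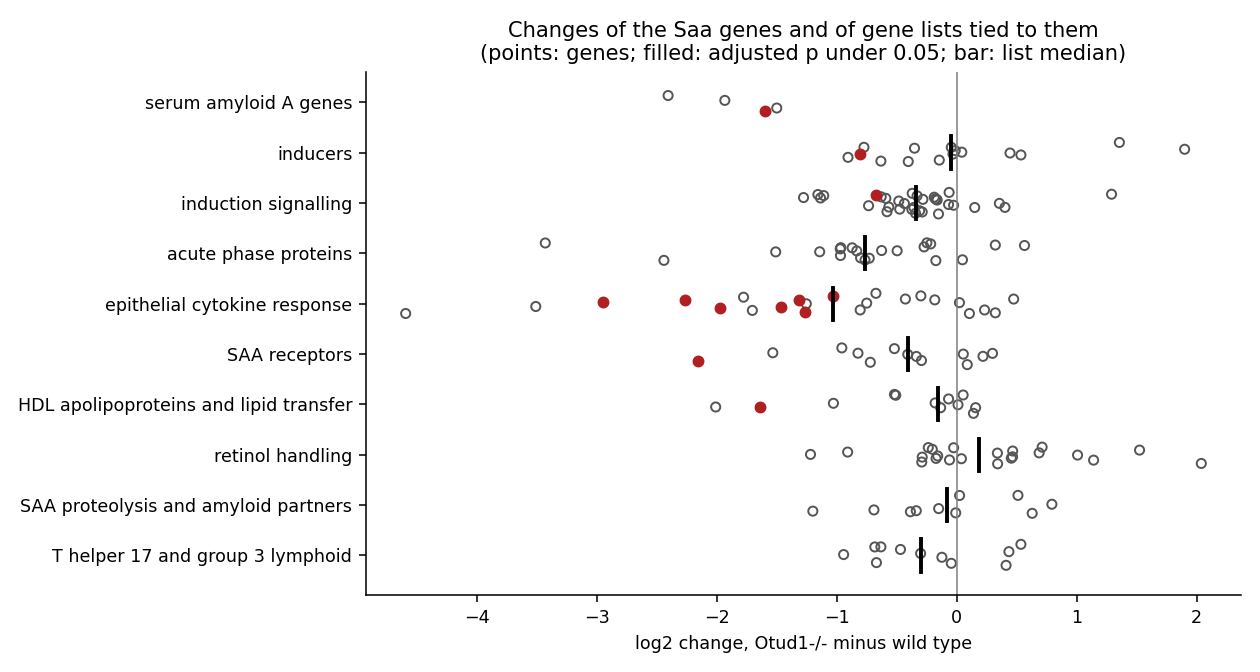
Each row is a list of genes, each point 1 tested gene at its log2 change, filled where the adjusted p is under 0.05, and the bar is the list's median. The epithelial cytokine response list holds 7 filled points, all below 0, and the retinol list lies around 0.19 with none.

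The RNA came from whole tissue, in which fewer cells of a type and less RNA per cell cannot be told apart, and several marker lists moved with the genotype label. For the marker counts that follow, 0.667% of all tested genes were called lower and 0.282% higher. Without overlap 13.3% of all tested genes were lower and 13% higher. The 15 pan-epithelial markers summed to 484077 to 573896 normalised reads in wild type and 311351 to 460043 in the other group, with 0 called by limma or edgeR (4 by DESeq2, 9 at an unadjusted limma p under 0.05), 8 lower without overlap and a median of -0.50. The 13 absorptive colonocyte markers, whose sums overlapped between groups, summed to 71002 to 105095 against 26099 to 141380, with 1 called higher. Without overlap 2 of them were lower and 2 higher. The 12 goblet cell markers summed to 257098 to 275027 against 104603 to 120661, with 2 called lower and 7 lower without overlap. The 15 macrophage and monocyte markers summed to 16503 to 19850 against 10671 to 11914, with 9 lower without overlap. All 15 were below 0 as normalised by the authors, and 0 were called by limma or edgeR (8 by DESeq2, 12 at an unadjusted limma p under 0.05). In wild type library 1, where Saa3 was low, the macrophage sum was 19626, in the upper part of the wild type range. Lyz2, the largest part of that sum, had 9530 normalised reads there against 8689 and 6416 in wild type libraries 2 and 3. Itgam was instead lowest there among wild type libraries, at 141 against 242 and 184. The sum without Lyz2 was not taken. The 12 smooth muscle markers summed to 40065 to 44152 against 65630 to 134261, with 3 called higher and all 12 higher without overlap. The 10 fibroblast markers summed to 16473 to 18782 against 14926 to 21190, with 0 lower and 1 higher without overlap. The part of these shifts in the Saa differences was not tested, beyond the pan-epithelial scaling given above.

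The 8 adipocyte markers in the table summed to 1379 to 1875 in wild type and 1678 to 2285 in the other group. Among them 1 was called higher, Plin4 (log2 change 1.28, adjusted p = 0.0449), and 0 were called lower. Without overlap 3 were higher and 0 lower, while 3 of the 8 changes were below 0 and 5 above. The defining markers Adipoq, Plin1, Lep and Retn have no value in the table, whose genes all have at least 10 reads over the 6 libraries. The 10 neutrophil markers summed to 7412 to 10474 against 3063 to 3822, and this difference rested on Ly6g, the 1 marker called lower, with 6276 to 8638 normalised reads against 1804 to 2845. The other 9 summed to 1136 to 2508 against 672 to 1458 and overlapped; 5 of the 10 changes were below 0 and 5 above, 3 lower and 2 higher without overlap. The 13 hepatocyte markers in the table summed to 5391 to 6205 against 2314 to 2611, with 2 of 9 tested called lower, Apob and Tat, whose wild type means were 2138 and 2579 normalised reads. Without these 2 the hepatocyte sums were 684 to 1611 against 466 to 1109 and overlapped; both shortened sums were chosen after seeing the data. Alb, the defining product of hepatocytes, was named after its values were seen: it had 758, 30.1 and 36.7 normalised reads in wild type and 213, 64.1 and 73.7 in the other group. Alb was highest in wild type library 1, where Saa1 was in the middle of the wild type values, and it overlapped between the groups. Apoa1 was also highest there, at 49.6 normalised reads against 1.88 and 6.12 in wild type libraries 2 and 3. Tat was lowest there among wild type libraries, at 2433 against 2762 and 2542. Any link of these markers to the Saa values was not tested.

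**Figure D5:**
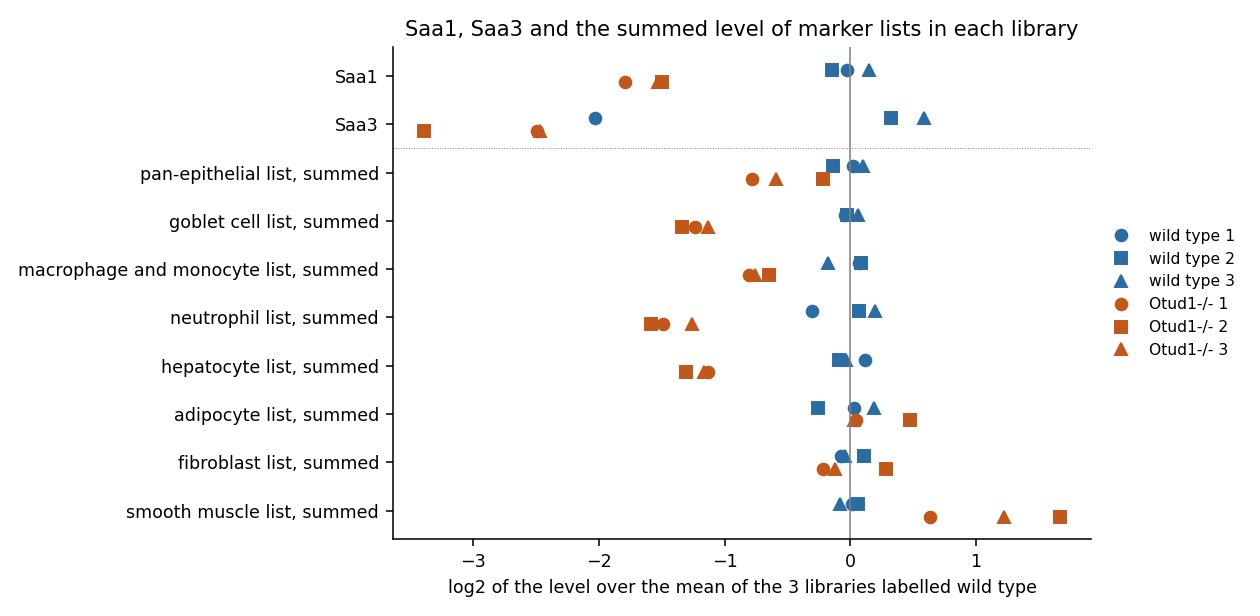
Levels of Saa1 and Saa3 and the summed levels of marker lists in each library are plotted as log2 over the mean of the 3 wild type libraries; blue points are wild type, orange points are libraries labelled Otud1-/- and symbols give the library number. Goblet cell and macrophage sums lie lower in all libraries labelled Otud1-/-. So do the neutrophil sum, which overlaps without Ly6g, and the hepatocyte sum, which overlaps without Apob and Tat. Smooth muscle sums lie higher. Wild type library 1 (blue circle) is low for Saa3 and not for the macrophage sum, of which Lyz2 is the largest part.

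The genes whose pattern was most like each member were sought among 10949 tested genes with a mean of at least 100, by Pearson correlation of log2 values over the 6 libraries. For Saa1 they were Tmbim4 (r = 0.999), Capn9 (0.998), Pgk1 (0.998), Sort1 (0.997) and Degs2 (0.996). As 728 genes of the pool had r over 0.9 with Saa1, such likeness was common. For Saa2 they were Slc35a4, Derl1, Hspa8 and Ddost (each 0.989) and Zfp239 (0.988), with 261 genes over 0.9. For Saa3 they were Sod2, the mitochondrial superoxide dismutase (0.991), Pkp2, a plakophilin of cell junctions (0.988), Serpinb5 (0.984), Trim72 (0.982) and the platelet chemokine gene Pf4 (0.980), with 133 genes over 0.9. These genes share the low value in wild type library 1: Sod2 had 1721 normalised reads there and 1983 and 2052 in the other wild type libraries, against 1578, 1500 and 1622 in the libraries labelled Otud1-/-.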

How the data were processed

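RNA was sequenced from colon next to tumours, with 3 wild type libraries and 3 labelled Otud1-/-. The deposited signal is 1 normalised read count per gene and library; the genome is mm10, per the submitters' processing notes, while the aligner, counter, strand setting and annotation were not given in the sources used here. All values (100.0%) were whole multiples of 1 step per library (tolerance 0.001 reads), which gave the reads and their depth back (15300937 to 19406407). Of 21374 gene identifiers, 21336 matched GENCODE, which gave symbols, coordinates and transcripts; promoters came from RefSeq.

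Genes that reached a value of 1 in 3 or more libraries entered limma 3.58.1 (R 4.3.3, trend and robust, two-sided) on log2(value + 1) over all 6 libraries, with Benjamini-Hochberg adjustment over 21281 genes; 93 were left out. Alternatives were other pseudocounts, filters, scalings, no trend, edgeR 4.0.16 and DESeq2 1.42.0 on the recovered reads (on which edgeR called 102 genes), a replicate block and leaving out libraries. Functions were tested on simulated data. Transcripts and promoters were aligned globally with Biopython 1.88. The members, gene lists and settings were chosen with earlier results of these data known. Named genes are the members, Otud1, up to 3 of each list with the smallest p, the 3 nearest tested genes on each side of the cluster, the 5 most correlated with each member of mean at least 10, and genes tied by role. The labels name no batch. One gene that this rule names is not reported here.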

Additional observations from a re-analysis of the deposited data

How the results depend on the processing

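Saa1 stayed below 0 in 20 of 20 other settings and was called in 19, with log2 changes of -1.67 to -1.08; without trend and robust it was -1.60 and not called (adjusted p = 0.0897). Saa2 was called in 0 of 19 (-1.92 to -0.99) and Saa4 in 0 of 17 (-4.44 to -1.43); with DESeq2 it got no adjusted p, and it fell under the filter on a mean of at least 5. Saa3 lay between -3.38 and -1.88 and was called in 3 of 19: with DESeq2 (-2.72), without wild type library 1 (-3.23) and without libraries 1 of both groups (-3.38, adjusted p = 0.0166); leaving out 1 library at a time moved it between -3.23 and -1.93. As reported, 202 genes were called (70.3% lower). Other settings called 122 with a mean of at least 5, 118 and 110 with pseudocounts of 0.1 and 0.01, 416 with scaling to total reads (24.8% lower), 2784 with pan-epithelial scaling (3.56% lower), 153 with quantile normalisation (60.1% lower), 0 without trend and robust (3499 at an unadjusted p under 0.05), 102 with edgeR TMM, 101 with edgeR median-of-ratios factors, 1420 with DESeq2 (52.5% lower) and 393 without libraries 1 of both groups; these are counts, not shared genes. Leaving out 1 library at a time gave 10 to 351: 35, 11 and 10 without wild type libraries 1, 2 and 3, and 334, 351 and 116 without libraries 1, 2 and 3 labelled Otud1-/-. The Saa3 to Saa1 log2 ratio, with leave-outs chosen after seeing the data, ranged from -1.63 to -0.39 without single libraries and was -1.86 without libraries 1 of both groups. Same-numbered libraries did not deviate together (correlations -0.26, -0.10 and -0.09). With so few libraries per group these correlations cannot show whether such libraries share more than a number. With the replicate block 18 genes were called, among them Saa1 at -1.60 (adjusted p = 0.0317). Not called with the block were Il1b (adjusted p = 0.149), Nfkbiz (0.150), Fpr2 (0.141) and Apob (0.0719).

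The 84 other genes picked by the naming rule or named in the text, which are not all members of the lists, gave 1586 values in other settings. Of these values 157 lost a call, 57 gained one and 40 changed sign. The changes of sign follow. With pan-epithelial scaling these were Pon3 0.0041, Ctsb 0.14, Gtf2h1 0.38, Sort1 0.088, Slc35a4 0.11, Derl1 0.45, Hspa8 0.35, Ddost 0.10, Zfp239 0.068, Sod2 0.24, Pkp2 0.32, Serpinb5 0.15 and Il22 0.47. With total reads they were Gtf2h1 0.061, Derl1 0.13, Hspa8 0.038, Pkp2 0.0082 and Il22 0.16. With quantile normalisation they were Saal1 -0.047, Derl1 0.10, Hspa8 0.34 and Alb -0.047. With edgeR TMM, edgeR median-of-ratios factors and DESeq2, Il22 was at 0.70, 0.69 and 0.69, and Alb with the 2 edgeR fits at -1.21 and -1.22. Without wild type library 1 Gm45629 was -0.047, Saal1 -0.0060 and Il22 0.43; without Otud1-/- library 1 Saal1 was -0.00066, Il22 0.071 and Alb -0.46; without Otud1-/- library 2 Il22 was 0.94, and without Otud1-/- library 3 Il6 was -0.0096. Alb was -0.74 and -0.60 without wild type libraries 2 and 3. Over the leave-outs of 1 library the highest values were Gm45629 0.73, Saal1 0.083, Il6 0.76 and Alb 1.57, and the lowest for Il22 was -1.14. Without libraries 1 of both groups Gm45629 was -0.13, Saal1 -0.033 and Il22 0.55. The causes were not tested. Depth limits Saa4, Saa-ps and, in Otud1-/- library 2, Saa2.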
